A study of Mus musculus with 9 samples.

Results

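The genes described here are 10 genes of the unfolded protein response of the endoplasmic reticulum (ER): Hspa5, Hsp90b1, Calr, Pdia4, Sdf2l1, Creld2, Manf, Xbp1, Dnajb9 and Herpud1. They were chosen by gene name among the 55401 genes of a table of RNA-seq counts, and all 10 had enough counts to be among the 16762 genes tested. The RNA came from cultures of primary neonatal mouse ventricular myocytes (NMVMs), heart muscle cells taken from wild-type C57BL/6J pups at 1 day of age. The 3 control libraries came from cells kept in normal oxygen in complete medium with serum. The 3 hypoxia libraries came from cells held for 6 h in a sealed AnaeroPack chamber, which removes oxygen, in DMEM without glucose or serum. The 3 hypoxia + rSRGN libraries came from cells given the same treatment with recombinant serglycin (rSRGN), a secreted proteoglycan core protein, added for the 6 h. Against control, low oxygen, loss of glucose and loss of serum came together, so their effects cannot be told apart. The labels give neither the dose of rSRGN nor whether the libraries of a group came from separate cultures, so the p-values measure the spread between these libraries.

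The ER folds secreted and membrane proteins with the help of resident chaperones and of enzymes that form disulfide bonds. When unfolded protein builds up there, the membrane sensors IRE1, PERK and ATF6 are released from the chaperone BiP and become active. IRE1 splices the mRNA of Xbp1, ATF6 is cut to free a transcription factor, and PERK phosphorylates eIF2-alpha, which lowers general translation while raising that of ATF4. XBP1 and cleaved ATF6 act on ER stress elements in the promoters of chaperone genes, while ATF4 acts on genes of amino acid supply and on Ddit3. Heart muscle cells depend on the ER (there the sarcoplasmic reticulum) for calcium storage as well as for protein folding, and lack of oxygen or glucose is a textbook cause of ER stress.

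Promoters of 9 of the 10 genes (all but Manf) were found in RefSeq (GRCm38.p6), from 250 bases before to 50 bases after the start site. The ER stress element ERSE was searched as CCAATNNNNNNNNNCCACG and the related ERSE-II as ATTGGNCCACG, on both strands. An ERSE stood in the promoters of Hspa5, Hsp90b1, Creld2 and Calr, and in 39 of all 32851 promoters (0.119%), or 0.127% of the 14933 promoters of tested genes. Hsp90b1 held 2 of them. An ERSE-II stood in the promoter of Herpud1 and in 12 of all promoters (0.0365%), or 0.0737% of the promoters of tested genes. ER stress elements are known from the promoters of such genes. The matches are therefore no independent result, and these shares are a description and not a test. The sequences of these 5 promoters are given here, since they are the members with an exact match to either element: 4 that were higher in hypoxia and Herpud1, which was not called. Each is written 5′ to 3′ on the strand of its gene and ends before the first base that the table counts as an exon of the gene. Capitals mark ERSE, ERSE-II, the core of the unfolded protein response element (UPRE, searched as TGACGTG) and the C/EBP-ATF response element (CARE, searched as TTGCATCA), which ATF4 binds.
Hspa5, chr2:34771840-34771969, plus strand: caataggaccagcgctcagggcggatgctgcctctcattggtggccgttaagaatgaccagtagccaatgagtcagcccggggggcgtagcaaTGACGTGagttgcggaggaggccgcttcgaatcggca
Hspa5 ERSE with 5 bases on each side, chr2:34772020-34772048, plus strand: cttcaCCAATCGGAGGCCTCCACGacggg
Hsp90b1, chr10:86705510-86705694, minus strand: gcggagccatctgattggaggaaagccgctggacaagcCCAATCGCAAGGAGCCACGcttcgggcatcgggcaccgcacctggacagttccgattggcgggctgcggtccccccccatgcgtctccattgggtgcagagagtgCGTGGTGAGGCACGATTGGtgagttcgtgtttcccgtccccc
Creld2, chr15:88819396-88819645, plus strand: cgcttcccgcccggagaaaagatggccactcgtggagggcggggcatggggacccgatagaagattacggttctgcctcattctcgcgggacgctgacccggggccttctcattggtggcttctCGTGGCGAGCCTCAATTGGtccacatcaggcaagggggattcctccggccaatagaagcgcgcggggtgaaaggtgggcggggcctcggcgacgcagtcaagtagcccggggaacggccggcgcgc
Calr, chr8:84846935-84847181, minus strand: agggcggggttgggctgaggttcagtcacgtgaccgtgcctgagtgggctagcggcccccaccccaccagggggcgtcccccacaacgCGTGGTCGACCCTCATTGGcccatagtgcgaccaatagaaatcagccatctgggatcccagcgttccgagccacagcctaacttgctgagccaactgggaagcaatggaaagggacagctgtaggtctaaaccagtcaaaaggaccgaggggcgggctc
Herpud1, chr8:94386179-94386428, plus strand: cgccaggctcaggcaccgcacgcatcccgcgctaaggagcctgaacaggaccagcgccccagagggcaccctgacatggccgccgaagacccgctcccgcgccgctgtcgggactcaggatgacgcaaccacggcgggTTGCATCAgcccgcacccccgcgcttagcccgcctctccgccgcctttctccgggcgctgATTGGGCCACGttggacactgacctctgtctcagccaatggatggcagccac

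The ERSE of Hspa5 began 65 bases before the RefSeq start site, and those of Hsp90b1 began 212 and 107 bases before it. In Creld2 and Calr the element began 126 and 162 bases before the start. These and the nearer element of Hsp90b1 were read on the strand opposite to the gene. The table counts the exon of Hspa5 from 120 bases before the RefSeq start, so its ERSE lies within the counted exon. The UPRE core was found in Hspa5 among the 9 genes and in 2.01% of all promoters (2.65% of those of tested genes). The CARE was found in Herpud1, which also holds the ERSE-II, and in 0.895% of all promoters (0.569% of those of tested genes). Xbp1, Pdia4, Dnajb9 and Sdf2l1 held none of these 4 motifs in this window. The building blocks CCAAT and CCACG, which overlap ERSE and ERSE-II, each stood in 8 of the 9 promoters (all but that of Xbp1), against 37.4% and 32.8% of all promoters and 37.3% and 45.3% of those of tested genes. The core of the hypoxia response element, ACGTG, which overlaps the UPRE core in Hspa5 and the ERSE-II in Herpud1, stood in 4 of the 9 (Hspa5, Dnajb9, Herpud1 and Calr) and in 19.6% of all promoters (24.5% of those of tested genes). The heat shock element, searched as GAANNTTCNNGAA, was in 0 of the 9 promoters and in 0.603% of all promoters (0.502% of those of tested genes). A match is a description of the letters in the window and does not show binding.

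Total counts ran from 21669017 to 22781557 in control, from 16583985 to 18148474 in hypoxia and from 16640239 to 20826701 in hypoxia + rSRGN. Counts of the 10 genes ranged from 231 (Sdf2l1) to 26347 (Calr) in a library. All 8 cardiomyocyte markers examined (Tnnt2 and Myh6 among them) were lower in hypoxia than in control. Their summed level was 36531 to 44806 CPM (counts relative to library size, scaled by TMM) in control, 3333 to 5093 CPM in hypoxia and 6416 to 6883 CPM in hypoxia + rSRGN. Of 8 fibroblast markers 6 were higher in hypoxia, with a sum of 8647 to 10232 CPM in control, 17074 to 19858 CPM in hypoxia and 18891 to 19451 CPM in hypoxia + rSRGN. All 6 macrophage markers were lower in hypoxia (24.2 to 26.8 CPM in sum against 223 to 236 CPM in control), with Adgre1 and C1qa at 0 in some hypoxia libraries. Of 6 endothelial markers 5 were lower in hypoxia (37.1 to 43.4 CPM in sum against 58.4 to 79.2 CPM), and of 3 mural markers 0 were called by edgeR in hypoxia against control, with 1 higher and 1 lower at an unadjusted p below 0.05 and 0 called by DESeq2. In such bulk RNA a smaller number of cells of a type and less of its RNA per cell cannot be told apart, and the part of these shifts in the results on the 10 genes was not tested.

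The question of the first comparison was how 6 h of hypoxia without glucose and serum changed the ER stress genes. Of the 10 genes, 7 were higher in hypoxia than in control: Creld2, Sdf2l1, Manf, Calr, Pdia4, Hsp90b1 and Hspa5, by 1.57-fold to 2.64-fold. None was lower, and Xbp1, Dnajb9 and Herpud1 were not called. To be called, a gene needed a fold change of at least 1.5 beside an adjusted p below 0.05 in the quasi-likelihood test of edgeR. Under this rule 26.4% of all tested genes were higher and 25.1% were lower, so the comparison moved much of the transcriptome. The median log2 fold change of the 10 genes was 0.81, and that of all tested genes was 0.05. By adjusted p alone 8 of the 10 were higher, Xbp1 being the added gene, against 36.8% of all tested genes. The same 8 genes had every hypoxia library above every control library, against 37.7% of all tested genes. The count of 0 lower genes was also 0 at an unadjusted p below 0.05 and with DESeq2.

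**Figure D1:**
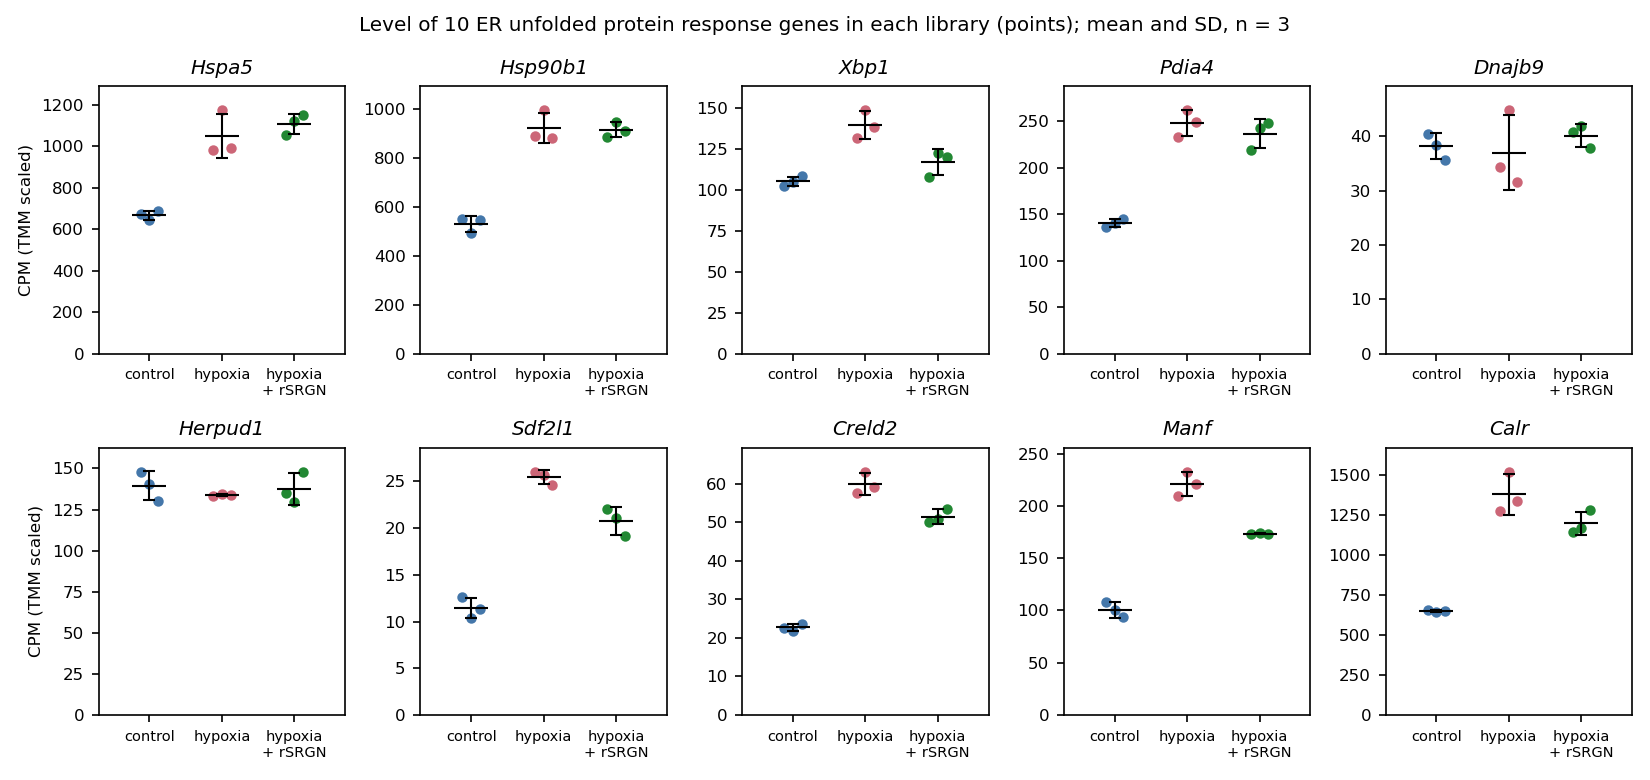
Level of each of the 10 genes in CPM (TMM scaled) in the 9 libraries, with a point for each library and a bar for the mean and SD of each group (n = 3). In 8 panels all hypoxia points lie above all control points, against 37.7% of all tested genes, while those of Dnajb9 and Herpud1 overlap.

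The chaperones of the ER lumen come first. Hspa5 encodes BiP, the HSP70 of the ER, which binds exposed hydrophobic stretches and keeps the stress sensors inactive. Hspa5 (ENSMUSG00000026864, GRCm38 chr2:34771970-34777547) measured 672, 644 and 686 CPM in the control libraries, 984, 1173 and 991 CPM in hypoxia, and 1054, 1120.2 and 1149 CPM in hypoxia + rSRGN. The libraries of hypoxia lay above all control libraries and overlapped those of hypoxia + rSRGN. The log2 fold change of hypoxia against control was 0.65 (SE 0.08, adjusted p 1.4e-07), or 1.57-fold with a 95% interval of 1.41 to 1.76. That interval reaches below the limit of 1.5-fold. Without the highest library, hypoxia replicate 2, the log2 fold change was 0.56 and Hspa5 was no longer called.

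Hsp90b1 encodes GRP94, the HSP90 of the ER, which folds a smaller set of clients such as integrins and Toll-like receptors. Hsp90b1 (ENSMUSG00000020048, chr10:86690209-86705509) measured 548, 492 and 545 CPM in control, 891, 994 and 880.1 CPM in hypoxia, and 886, 947 and 909.7 CPM in hypoxia + rSRGN. Control and hypoxia did not overlap, and the values with rSRGN lay within the range of hypoxia. Its log2 fold change in hypoxia against control was 0.80 (SE 0.07, adjusted p 2.62e-09), or 1.74-fold. Counting took no account of strand, and 415 bases of its exons (10.3%) are shared with 1810014B01Rik on the opposite strand, a gene with 523 counts over all 9 libraries.

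Calr encodes calreticulin, the soluble lectin chaperone of N-glycosylated proteins and a buffer of calcium in the ER lumen. Calr (ENSMUSG00000003814, chr8:84841850-84846934) measured 659, 645 and 648 CPM in control, 1277, 1520.2 and 1339 CPM in hypoxia, and 1142, 1171 and 1281 CPM in hypoxia + rSRGN. Every hypoxia library was above the control libraries, and the highest library of hypoxia + rSRGN stood slightly above the lowest of hypoxia. Calr rose by 1.08 on the log2 scale in hypoxia (SE 0.08, adjusted p 3.32e-11), or 2.12-fold. Pdia4 encodes ERp72, a protein disulfide isomerase. Pdia4 (ENSMUSG00000025823, chr6:47796141-47813430) measured 136, 140.3 and 145 CPM in control, 234, 262 and 249 CPM in hypoxia, and 219, 243 and 249 CPM in hypoxia + rSRGN. Its hypoxic groups overlapped and both lay above control. Pdia4 rose by 0.82 on the log2 scale in hypoxia (SE 0.07, adjusted p 1.19e-09), or 1.77-fold.

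The smaller partners and secreted factors had the largest fold changes of the 10. Creld2 encodes a protein with a disulfide isomerase activity that is made and secreted under ER stress. Creld2 (ENSMUSG00000023272, chr15:88819646-88826683) measured 22.7, 21.8 and 23.7 CPM in control, 57.6, 63.1 and 59.2 CPM in hypoxia, and 50.0, 51.0 and 53.6 CPM in hypoxia + rSRGN. The 3 groups did not overlap each other, with hypoxia highest. Creld2 rose by 1.40 on the log2 scale in hypoxia (SE 0.08, adjusted p 1.55e-12), or 2.64-fold with a 95% interval of 2.34 to 2.98. Its fold change ranked 1819 from the top among all tested genes.

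Sdf2l1 encodes a resident ER protein that works with the HSP40 co-chaperones of BiP. Sdf2l1 (ENSMUSG00000022769, chr16:17130138-17132383) measured 12.6, 10.4 and 11.3 CPM in control, 26.0, 25.7 and 24.6 CPM in hypoxia, and 22, 21.1 and 19.1 CPM in hypoxia + rSRGN. Its 3 groups were also apart from each other. In hypoxia Sdf2l1 rose by 1.15 on the log2 scale (SE 0.11, adjusted p 2.7e-09), or 2.22-fold. Manf encodes a resident ER protein that is partly secreted and protects neurons and heart cells. Manf (ENSMUSG00000032575, chr9:106838312-106891979) measured 108, 100.04 and 93.2 CPM in control, 209, 233 and 221 CPM in hypoxia, and 173, 174 and 173 CPM in hypoxia + rSRGN. All 3 groups were apart, with hypoxia + rSRGN in between. In hypoxia Manf rose by 1.14 on the log2 scale (SE 0.07, adjusted p 4.91e-12), or 2.20-fold. Exons of Manf share 146 bases (4.14%) with Dcaf1 and 166 bases (4.71%) with 4930524O07Rik, both on the opposite strand, with 6496 and 47 counts over the 9 libraries.

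The transcription factor Xbp1, the co-chaperone Dnajb9 and the degradation gene Herpud1 were not called. Xbp1 encodes the factor that IRE1 activates by splicing, and a count per gene holds both spliced and unspliced mRNA. Xbp1 (ENSMUSG00000020484, chr11:5520659-5525893) measured 102, 105 and 108 CPM in control, 132, 148 and 138 CPM in hypoxia, and 108, 122 and 120.1 CPM in hypoxia + rSRGN. The hypoxia libraries lay above all others. Against control its log2 fold change in hypoxia was 0.41 (SE 0.07, adjusted p 3.87e-05), or 1.33-fold with a 95% interval of 1.20 to 1.48, which lies under the fold limit.

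Dnajb9 encodes ERdj4, an HSP40 of the ER that is a target of XBP1 and recruits BiP to IRE1. Dnajb9 (ENSMUSG00000014905, chr12:44205559-44210326) measured 40.5, 38.5 and 35.7 CPM in control, 34.4, 44.8 and 31.6 CPM in hypoxia, and 40.7, 41.8 and 37.8 CPM in hypoxia + rSRGN. The hypoxia libraries held both the highest and the lowest of the 9 values. Against control Dnajb9 gave a log2 fold change of -0.05 (SE 0.11, adjusted p 0.701), with a 95% interval of the fold from 0.827 to 1.13. Herpud1 encodes a short-lived membrane protein that organises the complex for ER-associated degradation. Herpud1 (ENSMUSG00000031770, chr8:94386438-94395377) measured 148, 141 and 130.0 CPM in control, 133, 134 and 134 CPM in hypoxia, and 135, 129 and 148 CPM in hypoxia + rSRGN. The 3 groups overlapped, and the hypoxia libraries were nearly alike. Against control Herpud1 gave a log2 fold change of -0.06 (SE 0.07, adjusted p 0.465), with a 95% interval of the fold from 0.863 to 1.06. The intervals of Dnajb9 and Herpud1 lie below the fold of every member that was called, the smallest of which was the 1.57-fold of Hspa5.

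**Figure D2:**
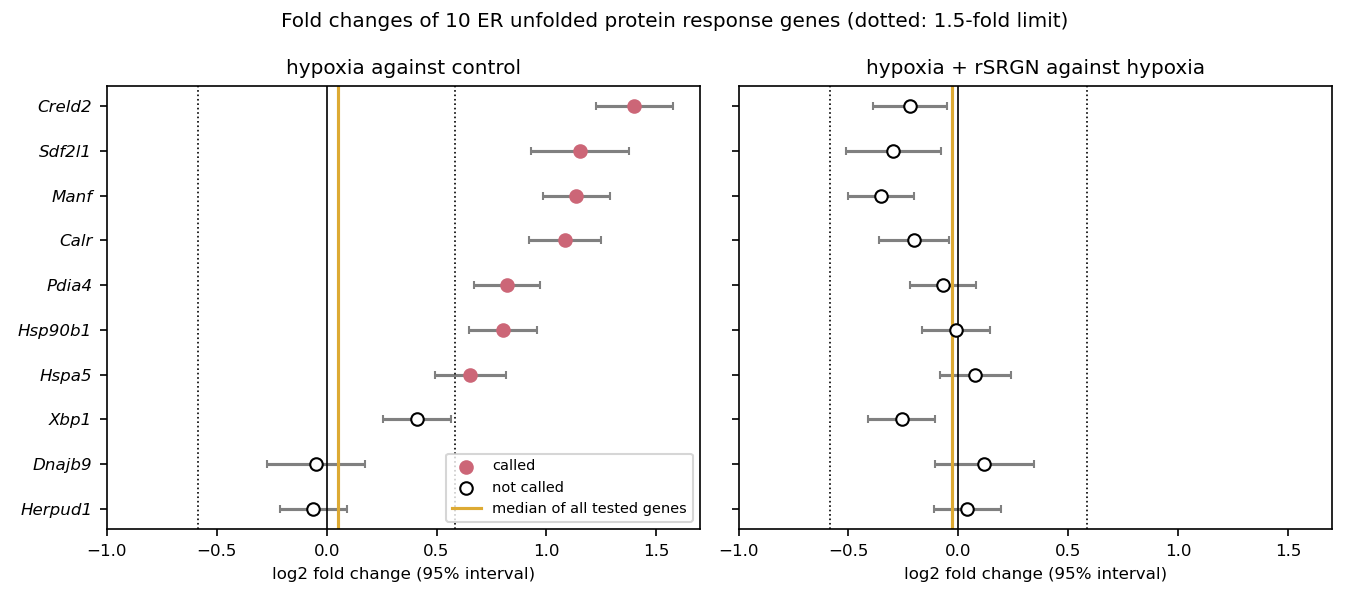
Log2 fold change of the 10 genes with its 95% interval (edgeR), hypoxia against control at the left and hypoxia + rSRGN against hypoxia at the right. Filled points passed both limits, dotted lines mark 1.5-fold and the yellow line is the median of all tested genes. At the left 7 points are filled and at the right 0.

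Levels of different genes were set side by side per kilobase, with the length summed over all annotated exons of a gene. Where those exons exceed the transcript expressed, the level comes out too low, so the order depends on the annotation. In control the order of mean CPM per kilobase was Calr (226), Hspa5 (158), Hsp90b1 (131), Herpud1 (59.8), Pdia4 (58.6), Xbp1 (32.3), Manf (28.5), Creld2 (16.6), Dnajb9 (15) and Sdf2l1 (10.3). Herpud1 and Pdia4 overlapped between libraries, and all other neighbours in this order were apart. In hypoxia the order of levels was Calr (479), Hspa5 (248), Hsp90b1 (229), Pdia4 (103), Manf (62.6), Herpud1 (57.3), Creld2 (43.9), Xbp1 (42.9), Sdf2l1 (23) and Dnajb9 (14.5). There Hspa5 overlapped Hsp90b1, and Creld2 overlapped Xbp1. Herpud1, level with Pdia4 and above Manf in control, was below both in hypoxia, and Dnajb9 went from above Sdf2l1 to last place. With rSRGN the order of levels was that of hypoxia, except that Herpud1 (58.9) was again above Manf (49.1). Calr stood at the 99.1th percentile of all tested genes in control and Sdf2l1, the lowest of the 10, at the 73.7th.

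Within the hypoxia group 9 of the 10 genes were highest in replicate 2, and Sdf2l1 in replicate 1. The share of all tested genes highest in replicate 2 was not worked out. Replicate 1 held the lowest value of 7 genes and replicate 3 that of the other 3. In control 6 genes were highest in replicate 1 and 4 in replicate 3. Over the tested genes hypoxia replicate 2 also differed most from its group, at a chi-square of counts per degree of freedom of 14.2 and 13.6. Hypoxia replicates 1 and 3 gave 7.12. Control replicate 1 gave 10.8 and 10.7, and control replicates 2 and 3 gave 4.91. The summed level of the 10 genes was 2338 to 2449 CPM in control, 3977 to 4598 CPM in hypoxia and 3828 to 4139 CPM in hypoxia + rSRGN. Over the 45 pairs of genes and the 9 libraries, the median Pearson r of log2 CPM was 0.85, and 33 pairs were positive. With each group mean removed the median r was 0.42, and 36 pairs were positive. These correlations share libraries and scaling and are given as a description.

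The question of the next comparison was whether rSRGN changed these genes within hypoxia. Of the 10 genes 0 were called higher and 0 lower in hypoxia + rSRGN against hypoxia, against 2.27% and 0.859% of all tested genes. DESeq2 also called 0 of them, while at an unadjusted p below 0.05 edgeR counted 0 higher and 5 lower (Manf, Xbp1, Sdf2l1, Creld2 and Calr), where 15.9% of all tested genes were higher and 13.5% lower. By adjusted p alone 2 were lower, Manf and Xbp1, against 6.11% of all tested genes. Groups were apart, with hypoxia + rSRGN lower, in 4 genes (Manf, Xbp1, Sdf2l1 and Creld2), against 15.4% of all tested genes. The median log2 fold change of the 10 was -0.14 and that of all tested genes -0.03.

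Manf differed most. Its log2 fold change was -0.35 (SE 0.07, adjusted p 0.00209), from 221 ± 11.7 CPM (SD, n = 3) in hypoxia to 173 ± 0.495 CPM in hypoxia + rSRGN. Xbp1 fell by 0.26 on the log2 scale (SE 0.07, adjusted p 0.0198), from 139 ± 8.39 CPM to 117 ± 7.90 CPM. Both changes were smaller than the limit of 1.5-fold. Without hypoxia + rSRGN replicate 1, Xbp1 gave -0.20 and its adjusted p (edgeR) rose to 0.143, while that of Manf stayed between 0.00177 and 0.0173 with each library left out. Sdf2l1 gave -0.30 (adjusted p 0.0549), Creld2 -0.22 (adjusted p 0.0685) and Calr -0.20 (adjusted p 0.0775), each short of the threshold, although with library size alone as the scaling these 3 adjusted p-values were 0.0420, 0.0408 and 0.0398. The 95% intervals of these 3 folds were 0.702 to 0.946, 0.764 to 0.965 and 0.778 to 0.971.

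The remaining 5 genes lay closer to 0. Hspa5 gave a log2 fold change of 0.08 (adjusted p 0.552), with a 95% interval of the fold from 0.944 to 1.18. Hsp90b1 gave -0.01 (adjusted p 0.942) with an interval of 0.892 to 1.104, and Pdia4 gave -0.07 (adjusted p 0.574) with an interval of 0.859 to 1.06. Among the genes not called in hypoxia, Dnajb9 gave 0.12 (adjusted p 0.509) with an interval of 0.929 to 1.27, and Herpud1 gave 0.04 (adjusted p 0.773) with an interval of 0.925 to 1.14. In the same comparison 7 of the 8 cardiomyocyte markers were called higher, and the list had a median of 0.78 on the log2 scale. Of the markers of other cell types, fibroblast Tcf21 was lower (-0.76), endothelial Kdr higher (0.93) and mural Rgs5 higher (0.78), named after their values were seen. The part of these markers in the values of the 10 genes was not tested.

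Against control, the hypoxia + rSRGN libraries gave 7 of the 10 genes higher and 0 lower (0 lower with DESeq2 and at an unadjusted p below 0.05), where 24.1% of all tested genes were higher and 24.7% lower. This comparison shares its control libraries with that of hypoxia. The log2 fold changes were 1.18 for Creld2, 0.88 for Calr, 0.86 for Sdf2l1, 0.79 for Hsp90b1, 0.79 for Manf, 0.75 for Pdia4 and 0.73 for Hspa5. Set beside hypoxia against control, Manf gave 0.79 where it had given 1.14, and Hspa5 gave 0.73 where it had given 0.65. Xbp1 gave 0.15 (SE 0.07, adjusted p 0.0721), Dnajb9 0.07 and Herpud1 -0.02, and these 3 were not called.

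The other arms of the pathway were read from lists of genes, whose counts in hypoxia against control stand beside the 26.4% higher and 25.1% lower of all tested genes. Of the sensors, Ern1 (which encodes IRE1) measured 29.5, 27.9 and 27.0 CPM in control and 33.3, 44.1 and 35.5 CPM in hypoxia, and Eif2ak3 (PERK) 26.5, 26.6 and 24.9 CPM against 32.9, 34.8 and 36.3 CPM. Both were apart between the groups, with log2 fold changes of 0.42 (adjusted p 0.00145) and 0.41 (adjusted p 0.000328), below the fold limit. With rSRGN the 3 libraries measured 45.8, 46.2 and 38.8 CPM for Ern1 and 38.6, 37.7 and 41.5 CPM for Eif2ak3. Against control both were then called higher, at 1.55-fold and 1.51-fold, while against hypoxia their log2 fold changes of 0.21 (adjusted p 0.185) and 0.18 (adjusted p 0.181) did not pass. Atf6 measured 103, 107 and 107 CPM in control, 54.4, 61.9 and 46.8 CPM in hypoxia, and 73.7, 78.9 and 73.5 CPM in hypoxia + rSRGN. It was lower in hypoxia by 0.96 on the log2 scale (SE 0.09, adjusted p 1.44e-09) and stood higher with rSRGN than in hypoxia alone, by a log2 fold change of 0.47 (adjusted p 0.000887), which is below the fold limit. Over the 9 tested sensors and membrane-bound factors, 2 were higher and 2 lower in hypoxia, and their median was 0.41 on the log2 scale. Besides Atf6 these were Creb3l1 (1.12), Atf6b (0.76) and Mbtps2 (-0.81), named after their values were seen.

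The list of PERK and ATF4 output holds Atf4 and other genes of that arm. The activity of PERK was not measured, and whether these genes changed through PERK was not tested. Of the 12 genes of the list 10 were higher in hypoxia and 0 lower, with a median of 1.48 on the log2 scale. The count of 0 lower was the same with DESeq2 and at an unadjusted p below 0.05. Ddit3, which encodes the stress factor CHOP, measured 20.4, 21.2 and 21.3 CPM in control, 65.4, 90.9 and 61.2 CPM in hypoxia, and 74.0, 77.1 and 76.3 CPM in hypoxia + rSRGN. The control libraries were far below the others. Its log2 fold change in hypoxia was 1.79 (adjusted p 3.42e-12). Ppp1r15a (GADD34, which returns eIF2-alpha to its active state) gave 1.92, Atf4 itself 1.39 and Trib3, a pseudokinase target of ATF4 and CHOP, 1.09. The 2 genes not called were Ppp1r15b (0.03) and Sesn2 (0.28), named after their values were seen.

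Chaperones and enzymes of the ER outside the 10 genes moved in part with them. Of 16 other ER chaperones and co-chaperones 9 were higher in hypoxia and 0 lower (0 lower also with DESeq2 and at an unadjusted p below 0.05), and the list had a median of 0.63 on the log2 scale. The largest rises were those of Serpinh1 (1.41), the collagen chaperone HSP47, and Ppib (1.26), the ER cyclophilin that also serves collagen. The fibroblast markers, which include 3 collagens, were higher in the same libraries, as given above, and their part in these values was not tested. Of 18 oxidoreductases 10 were higher and 2 lower, with a median of 0.72, led by Pdia5 (1.38) and Pdia3 (1.31). The 2 lower ones were Tmx4 (-2.25) and Tmx2 (-0.91), membrane-bound thioredoxin-like proteins.

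Of 24 genes of protein translocation and N-glycosylation 15 were higher and 0 lower (median 0.70), with Sec61b (1.46), a subunit of the translocon, and Ssr4 (1.28), of the translocon-associated complex, at the top. At an unadjusted p below 0.05 edgeR counted 2 of them lower, and DESeq2 called 0 lower. Of 24 genes of ER-associated degradation 5 were higher and 4 lower, with a median of 0.31, counts near the shares of all tested genes. At an unadjusted p below 0.05, with no fold limit, edgeR counted 14 of them higher and 6 lower, where 38.1% of all tested genes were higher and 34.9% lower. Called higher were Selenos (1.09), Selenok (1.06), Aup1 (0.72), Syvn1 (0.62) and Edem1 (0.61), and called lower were Edem3 (-1.08), Sel1l (-0.78), Vcp (-0.68) and Fam8a1 (-0.63). Sel1l and Syvn1, which form the core ligase complex with which Herpud1 works, thus moved in opposite directions. Aup1, Syvn1, Edem1, Vcp and Fam8a1 were named after their values were seen.

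Chaperones outside the ER were read in the same way. Of 12 cytosolic chaperones 11 were higher in hypoxia and 0 lower (0 lower also with DESeq2 and at an unadjusted p below 0.05), and the median was 1.85 on the log2 scale. The inducible HSP70 genes Hspa1a and Hspa1b, whose near-identical copies can share reads, gave 10.34 and 9.30. Hspa4 was the gene not called (-0.13), named after its value was seen. Of 8 mitochondrial chaperones 2 were higher, Hspe1 (2.72) and Hspd1 (1.77), and 2 lower, Trap1 (-0.99) and Dnaja3 (-0.68), with a median of -0.26. The median of the 10 ER genes, 0.81, thus lay below that of the cytosolic list and above that of the mitochondrial list, a description that was not tested. In hypoxia + rSRGN against hypoxia edgeR called 0 genes of any of these 8 lists, while DESeq2 called 1 oxidoreductase and 0 others. At an unadjusted p below 0.05, 8 cytosolic chaperones and 4 genes of PERK and ATF4 output were higher with rSRGN and 0 of either list lower. The shares of all tested genes by this measure were 15.9% higher and 13.5% lower. Of 24 genes each, 4 genes of translocation and N-glycosylation were higher and 9 lower, 7 genes of ER-associated degradation were higher and 1 lower, and the other lists had 0 to 4 higher and 0 to 3 lower.

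**Figure D3:**
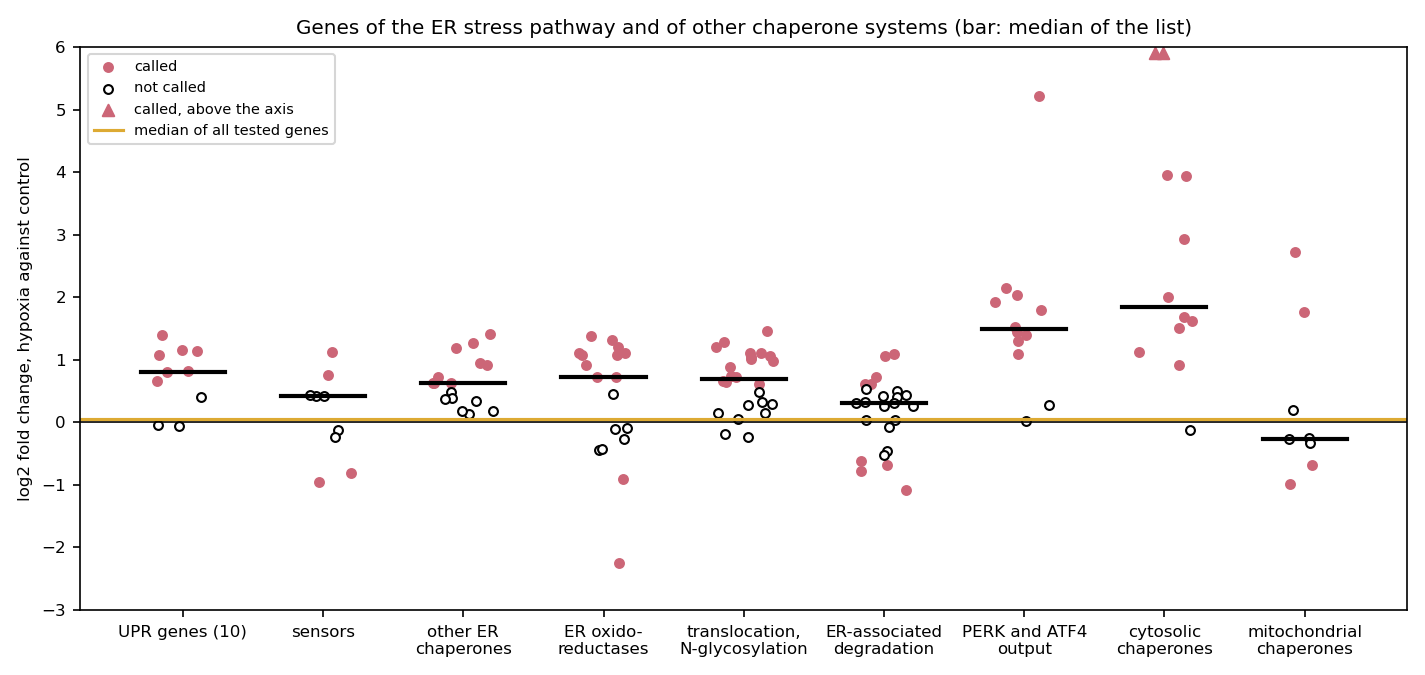
Log2 fold change in hypoxia against control of every tested gene of 9 lists, with a bar for the median of each list. Filled points passed both limits, and triangles are Hspa1a and Hspa1b, which lie above the axis at 10.34 and 9.30. The 10 unfolded protein response genes have their median at 0.81, the PERK and ATF4 output at 1.48 and the cytosolic chaperones at 1.85.

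Ratios of counts within a library do not depend on the scaling between libraries, so each gene except Xbp1 was also set against a related gene. There were 11 pairs and 22 tests, and an exact permutation test of 3 against 3 libraries cannot go below p = 0.1 (adjusted p 0.157), so none can pass. In hypoxia against control 10 pairs were apart, 6 upward and 4 downward, and 1 pair overlapped. The share of other gene pairs that were apart was not worked out. Of all tested genes, taken singly, 37.7% had every hypoxia library above every control library. A ratio also moves with the related gene, such as Hspa8 (log2 fold change 1.12), Trap1 (-0.99) and Cdnf (-1.70). Hspa5 fell by 0.47 on the log2 scale relative to its cytosolic relative Hspa8 and rose by 0.92 relative to its mitochondrial relative Hspa9. Hsp90b1 differed by -0.11 relative to cytosolic Hsp90ab1, with overlapping groups, and by 1.79 relative to mitochondrial Trap1.

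Calr gained 0.94 on the log2 scale over Canx, the membrane-bound lectin of the same cycle. Its log2 ratio to Canx ran from -0.08 to 0.02 in control, from 0.81 to 0.99 in hypoxia and from 0.40 to 0.67 in hypoxia + rSRGN. The 3 groups were apart, and the difference of hypoxia + rSRGN from hypoxia was -0.39. Manf gained 2.84 over Cdnf, its paralogue, which was itself lower in hypoxia, at 2.29 ± 0.515 CPM against 7.43 ± 1.08 CPM in control. Creld2 gained 0.88 over Creld1 and Sdf2l1 gained 0.53 over Sdf2. Dnajb9 fell by 0.68 relative to Dnajb11, another HSP40 of the ER, Herpud1 by 0.48 relative to Herpud2, and Pdia4 by 0.38 relative to Pdia6. Of these relatives Dnajb11 (log2 fold change 0.63) and Pdia6 (1.21) were called higher in hypoxia and Herpud2 (0.42) was not. In hypoxia + rSRGN against hypoxia 4 pairs were apart and 7 overlapped, again with no share worked out over other gene pairs. Of all tested genes, taken singly, 15.4% had every hypoxia + rSRGN library below every hypoxia library. Besides the ratio of Calr to Canx, that of Creld2 to Creld1 was lower (-0.15), while those of Pdia4 to Pdia6 (0.21) and of Hsp90b1 to Hsp90ab1 (0.07) were higher.

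**Figure D4:**
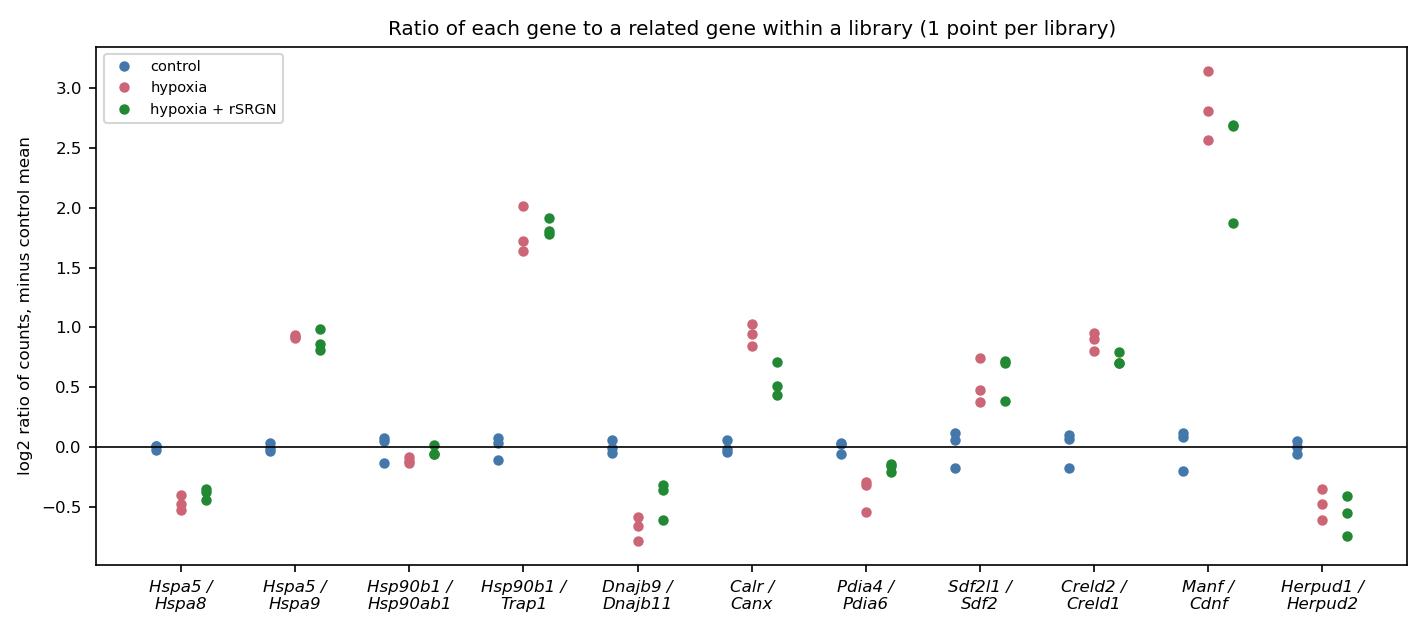
Log2 ratio of counts of each gene except Xbp1 to a related gene, with the mean of the control libraries taken away, for the 9 libraries (1 point each). In hypoxia 6 ratios lie above all control points and 4 below them, while Hsp90b1 to Hsp90ab1 overlaps. The share of other gene pairs that were apart was not worked out.

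The genes whose log2 CPM followed Hspa5 most closely over the 9 libraries, among 9749 genes with a mean of at least 10 CPM, were Ndel1 (Pearson r 0.997), Egr2 (0.996), Ccni (0.995), Smap1 (0.995) and Yrdc (0.994). Egr2, an immediate early transcription factor, measured 17.7, 45.6 and 17.6 CPM in the hypoxia libraries and shared its peak in replicate 2 with Hspa5. Of the 10 genes, Hsp90b1 was most like Hspa5 (r 0.986, rank 64), followed by Pdia4 (0.974, rank 286), Calr (0.957) and Creld2 (0.956). Sdf2l1 gave 0.900 and Manf 0.898, at ranks 2048 and 2081. Xbp1 (0.712), Dnajb9 (0.195) and Herpud1 (-0.23) followed the pattern of Hspa5 least. The points share their libraries and scaling, and no test was made.

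The 4 elements marked above were last set against all tested genes that carry them. An ERSE stood in the promoters of 19 tested genes, of which 9 (47.4%) were higher and 1 lower in hypoxia, against 26.4% and 25.1% of all tested genes. The shares of all tested genes include genes without a promoter in the search, such as Manf. Of the tested genes with CCACG in the promoter 22.1% were higher. The 9 higher genes with an ERSE included all 4 of the 10 genes with the element. Among the 15 others 5 (33.3%) were higher, namely Xlr3a, Zfp57, Pdia6, Xlr3b and Syvn1, and 1 was lower, Acacb, at a log2 fold change of -3.48, all named after their values were seen. Xlr3a and Xlr3b are near-identical copies whose reads could be divided either way. Canx and Dnajc3, ER chaperones that carry an ERSE, gave log2 fold changes of 0.14 and 0.19 and were not called, Dnajc3 being named after its value was seen. An ERSE-II stood in 11 tested genes, of which 6 (54.5%) were higher, and Herpud1 was among those not called. The UPRE core stood in 370 tested genes, of which 82 (22.2%) were higher and 81 lower, with a median log2 fold change of 0.07, and Hspa5 was among the higher. The CARE stood in 81 tested genes, of which 32 (39.5%) were higher and 19 lower, with a median of 0.16. Of the members without an exact match to ERSE or ERSE-II in the window, Pdia4 and Sdf2l1 were higher, and Xbp1 and Dnajb9 were not called. Inexact matches and sites outside the window were not searched.

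**Figure D5:**
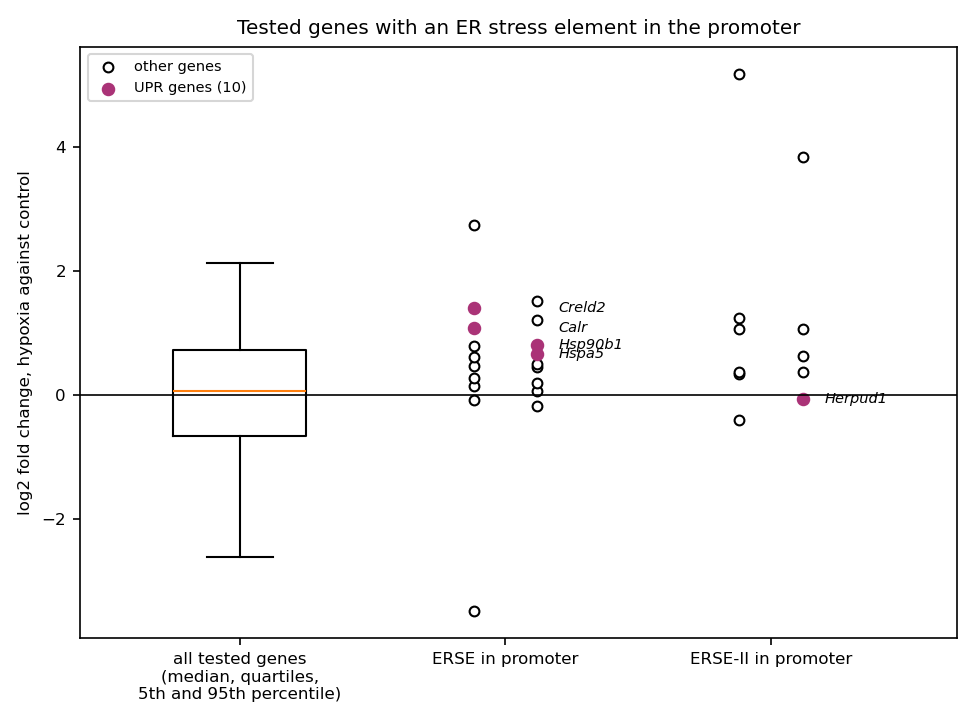
Log2 fold change in hypoxia against control of the tested genes with an ERSE (19 genes) or an ERSE-II (11 genes) in the promoter, beside the median, quartiles and 5th and 95th percentiles of all tested genes. The 4 members with an ERSE lie between 0.65 and 1.40, and Herpud1, with an ERSE-II, at -0.06.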

How the data were processed

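The deposited table holds whole-number counts of fragments per gene, which the authors made with featureCounts 2.0.1 on exons of GENCODE mouse release 25 (mm10), without a strand option and without normalization. HISAT2 is named in the submitters' processing notes. Overlapping genes and near-identical copies are therefore uncertain. All 9 count columns were used, each assigned to its group by its label. Replicate libraries differed by more than sampling noise, so each was kept.

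Counts were filtered (filterByExpr), scaled by TMM and tested in R 4.3.3 with edgeR 4.0.16 (quasi-likelihood, a mean per group, 9 libraries, Benjamini-Hochberg adjustment over 16762 genes). Genes were called at an adjusted p below 0.05 and at least 1.5-fold. SE is the log2 fold change over the root of F, and intervals are 95%. The procedure was tested on simulated data. Ratios used a pseudocount of 0.5. Alternatives were DESeq2 1.42.0, other scalings, filters and fits, the replicate block and each library left out. Figures were drawn with matplotlib 3.10.9.

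The members and gene lists were chosen with earlier results of these data known. Named genes are the members, their relatives, Ern1, Eif2ak3, Atf6, Atf4, Ddit3, Trib3, Ppp1r15a, the 2 called genes with the largest rise and fall of each other list, and the 5 most like Hspa5 (log2 CPM, prior count 2, mean of at least 10 CPM). Ddit3 stands in the table more than once, and its entry with counts was used.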

Additional observations from a re-analysis of the deposited data

How the results depend on the processing

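In hypoxia against control 7 of the 10 genes were called higher, 8 with no fold change limit and 6 to 7 with each library left out. The other 2 comparisons kept their 0 and 7 higher under every alternative run. Without hypoxia replicate 2 Hspa5 was not called, at a log2 fold change of 0.56. In hypoxia + rSRGN against hypoxia 2 members were lower with no fold change limit (Manf and Xbp1) in place of 0. All genes called there numbered 525, against 2790 with no fold change limit and 321 to 699 with a library left out (321 without hypoxia replicate 3). The share of higher calls there was 72.6%, 80.7% with RLE scaling and 66.9% with library size alone.

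The results that changed sign were all near 0 and not called. For Dnajb9 in hypoxia against control the log2 fold change was 0.0159 with library size alone and -0.211 to 0.0492 with a library left out. For Herpud1 it was 0.0067 with library size alone, and against control with rSRGN 0.0247 with library size alone and -0.0817 to 0.0195 with a library left out. For Hsp90b1 in hypoxia + rSRGN against hypoxia it was 0.0172 with DESeq2 and with RLE scaling, 0.0018 with at least 10 counts in every library, 0.00083 with at least 1 count, 0.0043 with only the 2 groups, and -0.0423 to 0.0475 with a library left out. In that comparison Herpud1 ranged from -0.0060 to 0.0835. With a library left out the log2 ratios of Hspa5 to Hspa9 (-0.0829 to 0.0050), Hsp90b1 to Trap1 (-0.0326 to 0.154), Sdf2l1 to Sdf2 (-0.0068 to 0.181) and Herpud1 to Herpud2 (-0.167 to 0.0020) also changed sign. The cause was not tested.

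Libraries of the same number deviated together in 1 of 9 pairs only (r over 0.1, range -0.18 to 0.21), so the numbers were not taken as pairs. With the replicate block 7, 0 and 7 of the 10 genes were called higher in the 3 comparisons, 0 lower, and all genes called numbered 8550, 495 and 8096. Each group held 3 libraries. In hypoxia against control the log2 intervals were widest for Dnajb9 and Sdf2l1.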
